A study of Mus musculus with 22 samples.

Results

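The genes described here are 38 genes of blood coagulation, fibrinolysis and complement, most of them encoding proteins that hepatocytes make and release into plasma. They were chosen by name: Ensembl gene identifiers of the deposited count table were paired with GENCODE mouse gene symbols, and all 38 listed symbols were found among the 53392 genes of the table. Of these, 21 belong to coagulation and fibrinolysis and 17 to complement, and all 38 passed the filter on low counts that left 15928 genes for testing.

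Liver RNA was sequenced from 22 female C57BL/6 mice to ask how pregnancy and the absence of a gut microbiota alter hepatic gene expression, with genes of drug handling as the stated subject. CN denotes 6 conventional non-pregnant mice, CP 5 conventional pregnant mice, GN 6 germ-free non-pregnant mice and GP 5 germ-free pregnant mice, each library being 1 mouse. All groups had the same autoclaved breeder chow, water and bedding and the same light cycle. Pregnant livers were taken at gestation day 15. Conventional females were mated overnight at 8 weeks of age, whereas germ-free females were mated at 11 to 15 weeks for 72 h, so their gestation day rests on an assumed day of conception. The age labels, whose unit is not stated, were 70 or 77 in both conventional groups, 92 to 105 in GN and 91 to 121 in GP. Age and germ-free status therefore cannot be told apart in any comparison of conventional with germ-free mice.

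Coagulation is a cascade of serine proteases in which factor VII with tissue factor, or the contact system with factor XI, leads to factor X and then to thrombin, which turns fibrinogen into fibrin. Antithrombin, heparin cofactor II, protein C, protein S and tissue factor pathway inhibitor restrain it, and plasmin removes the clot. Complement is another plasma cascade, started by the classical, lectin or alternative pathway, that converges on C3 and ends with C5 to C9 assembling a pore in target membranes. Pregnancy is well known for a procoagulant shift in plasma with raised fibrinogen and several raised factors.

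The promoters of 5 genes are shown because the results turn on them: the fibrinogen chain genes Fga, Fgb and Fgg, which lie side by side and all rose in germ-free pregnancy, and F7 and C9, which had the largest rise and the largest fall. RefSeq promoter entries (GRCm38.p6) matched 31 of the 38 genes, with 34 entries; Kng1, Proc, Plg, Masp1, C4b, Cfb and Cfi had none. In the 250 bases before each start, 4 motifs were searched on both strands: CTGGGAA, the core of the interleukin 6 response element; TTCNNNGAA, a STAT dimer site; GTTAAT, part of an HNF1 site; and TTGCGNAA, a C/EBP site. The first pair can share letters. Capitals mark these motifs, sequences run 5′ to 3′ on the strand of the gene, and bases inside the GENCODE transcript were left off.
Fga, chr3:83025903-83026075, plus strand: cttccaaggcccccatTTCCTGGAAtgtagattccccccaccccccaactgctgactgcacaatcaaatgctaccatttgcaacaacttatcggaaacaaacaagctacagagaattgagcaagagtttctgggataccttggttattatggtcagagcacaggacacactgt
Fgb, chr3:83049864-83050113, minus strand: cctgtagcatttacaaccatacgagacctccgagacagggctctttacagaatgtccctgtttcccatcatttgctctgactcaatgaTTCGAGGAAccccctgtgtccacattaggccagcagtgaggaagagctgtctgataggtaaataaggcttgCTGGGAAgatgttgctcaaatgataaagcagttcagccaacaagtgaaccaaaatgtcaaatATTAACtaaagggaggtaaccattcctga
Fgg, chr3:83007474-83007723, plus strand: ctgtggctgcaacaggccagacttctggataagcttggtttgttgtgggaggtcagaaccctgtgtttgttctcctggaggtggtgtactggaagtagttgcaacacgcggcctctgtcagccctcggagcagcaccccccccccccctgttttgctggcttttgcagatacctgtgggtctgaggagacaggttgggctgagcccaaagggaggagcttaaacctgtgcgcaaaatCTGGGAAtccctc
F7, chr8:13025784-13026033, plus strand: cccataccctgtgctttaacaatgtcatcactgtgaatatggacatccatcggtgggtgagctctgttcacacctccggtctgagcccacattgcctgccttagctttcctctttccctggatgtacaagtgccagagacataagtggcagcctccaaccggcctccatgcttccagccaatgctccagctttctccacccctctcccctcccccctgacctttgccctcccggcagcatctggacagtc
C9, chr15:6445096-6445326, plus strand: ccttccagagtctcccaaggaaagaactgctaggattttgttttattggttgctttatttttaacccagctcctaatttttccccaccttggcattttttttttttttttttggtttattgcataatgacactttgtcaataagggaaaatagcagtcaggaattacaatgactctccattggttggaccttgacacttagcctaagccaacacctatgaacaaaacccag
Fgb held CTGGGAA 91 bases before its RefSeq start, TTCNNNGAA at 162 bases and GTTAAT at 29 bases. Fgg held CTGGGAA at 13 bases. Fga held TTCNNNGAA at 234 bases, and its GTTAAT match at 43 bases lies within the GENCODE transcript and is not shown. F7 and C9 held none of these letters in the window. CTGGGAA was found in 6 of the 34 promoter entries (17.6%) and in 9.1% of all 32851 promoters. TTCNNNGAA was also found in 6 (17.6%), against 7.02% of all promoters, GTTAAT in 8 (23.5% against 6.43%) and TTGCGNAA in 1, that of C3 (2.94% against 0.67%). Such matches describe letters and are not evidence of binding.

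Library totals ran from 18064491 to 30036912 estimated counts, and mitochondrially encoded genes took 5.9% to 32.0% of them. Values below are CPM, the usual count scaled by the TMM effective library size, and a gene is said to have risen or fallen where the adjusted p of edgeR's quasi-likelihood test over all 15928 genes was under 0.05. Of 2 libraries that stood apart, CP replicate 2 had 2049 CPM of Saa1 and 2156 CPM of Saa2, genes of the acute phase, where no other library passed 62.2 and 43.5. CN replicate 6 had the highest CN value for many of the genes described here. The conventional libraries with age label 70 were CP replicates 1 and 2 and CN replicates 1 and 6. Exons of 9 of the 38 genes (Fgg, F5, Klkb1, Serpinc1, Plg, C1s1, Masp2, Cfb and Hc) overlap another gene, and use of strand in the counting was not stated, so reads of such pairs may not be told apart. Hepatocyte markers were abundant in all libraries, with a summed level of 6 genes from 50856 to 233682 CPM. In whole liver, fewer cells of a type and less RNA per cell cannot be told apart.

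In conventional mice 9 of the 38 genes rose with pregnancy (23.7% against a background of 5.49% of all genes tested) and C9 alone fell (background 3.52%). The 9 were Fgg, F2, F7, F10, F5, F11, Serpind1, Mbl2 and Cfi. In germ-free mice 22 rose (57.9%, background 7.15%) and C9 again alone fell (background 3.6%). All 9 genes that rose in conventional mice were among the 22, of which they made up 40.9%. The share of all genes called in both is not given here. The conventional and germ-free comparisons share no library, but both come from 1 fit with a shared estimate of the spread, so their calls are not fully independent. The median log2 fold change was 0.43 in conventional and 0.73 in germ-free mice, against 0.04 and -0.02 over all genes tested. The coagulation and fibrinolysis genes numbered 7 of 21 risen in conventional and 14 of 21 in germ-free mice, and the complement genes 2 of 17 and 8 of 17. The count in conventional mice moved with single libraries: it was 18 without CN replicate 6, 11 without CP replicate 2 and 5 without CP replicate 3. The genes added without CN replicate 6 were Fga, F9, Plg, Serpinf2, C3, C4b, Cfb, C4bp and Hc, and those lost without CP replicate 3 were Fgg, F11, Serpind1 and Mbl2. DESeq2 called 12 genes higher, the same 9 with Kng1, Cfb and C4bp, and 1 lower. With only CN and CP in the fit, F2, F7 and F10 were called higher, while F5 and Cfi had an adjusted p of 0.055. In germ-free mice, leaving out any 1 library gave 21 or 22. The share of all genes called in each of these other fits is not given here. A shift of these genes and a shift of calls over all genes therefore cannot be told apart in these counts.

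**Figure D1:**
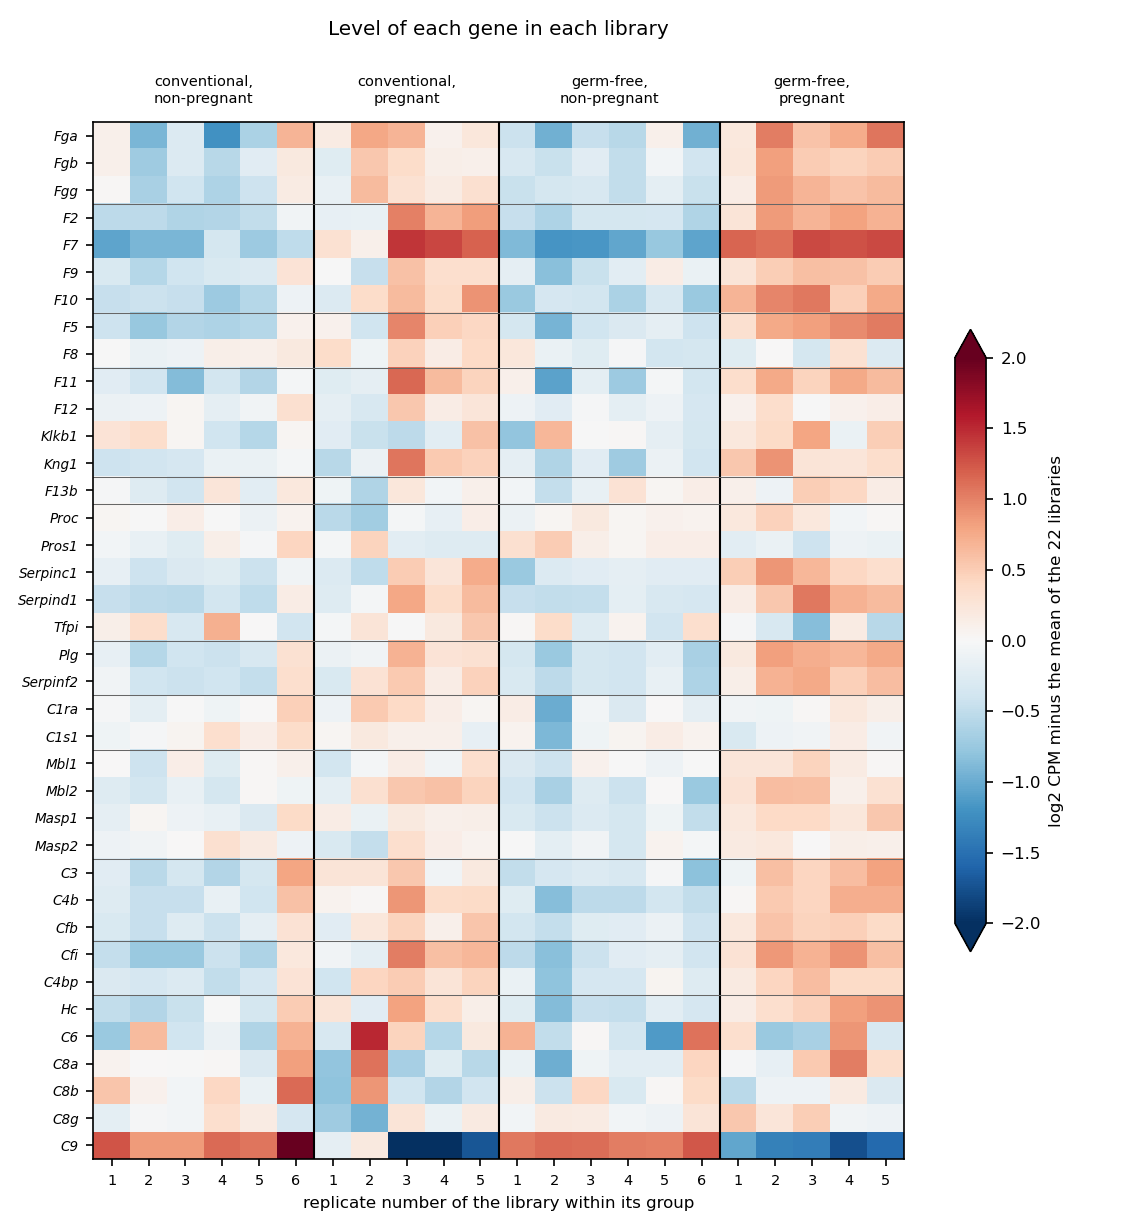
Level of each of the 38 genes (rows, by role) in each of the 22 libraries (columns, by group and replicate), as log2 CPM minus the gene's mean over all libraries; the colour scale ends at -2 and 2. Most rows are red in the 5 germ-free pregnant libraries and in conventional pregnant replicates 3 to 5, F7 most of all, whereas C9 is blue there.

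**Figure D2:**
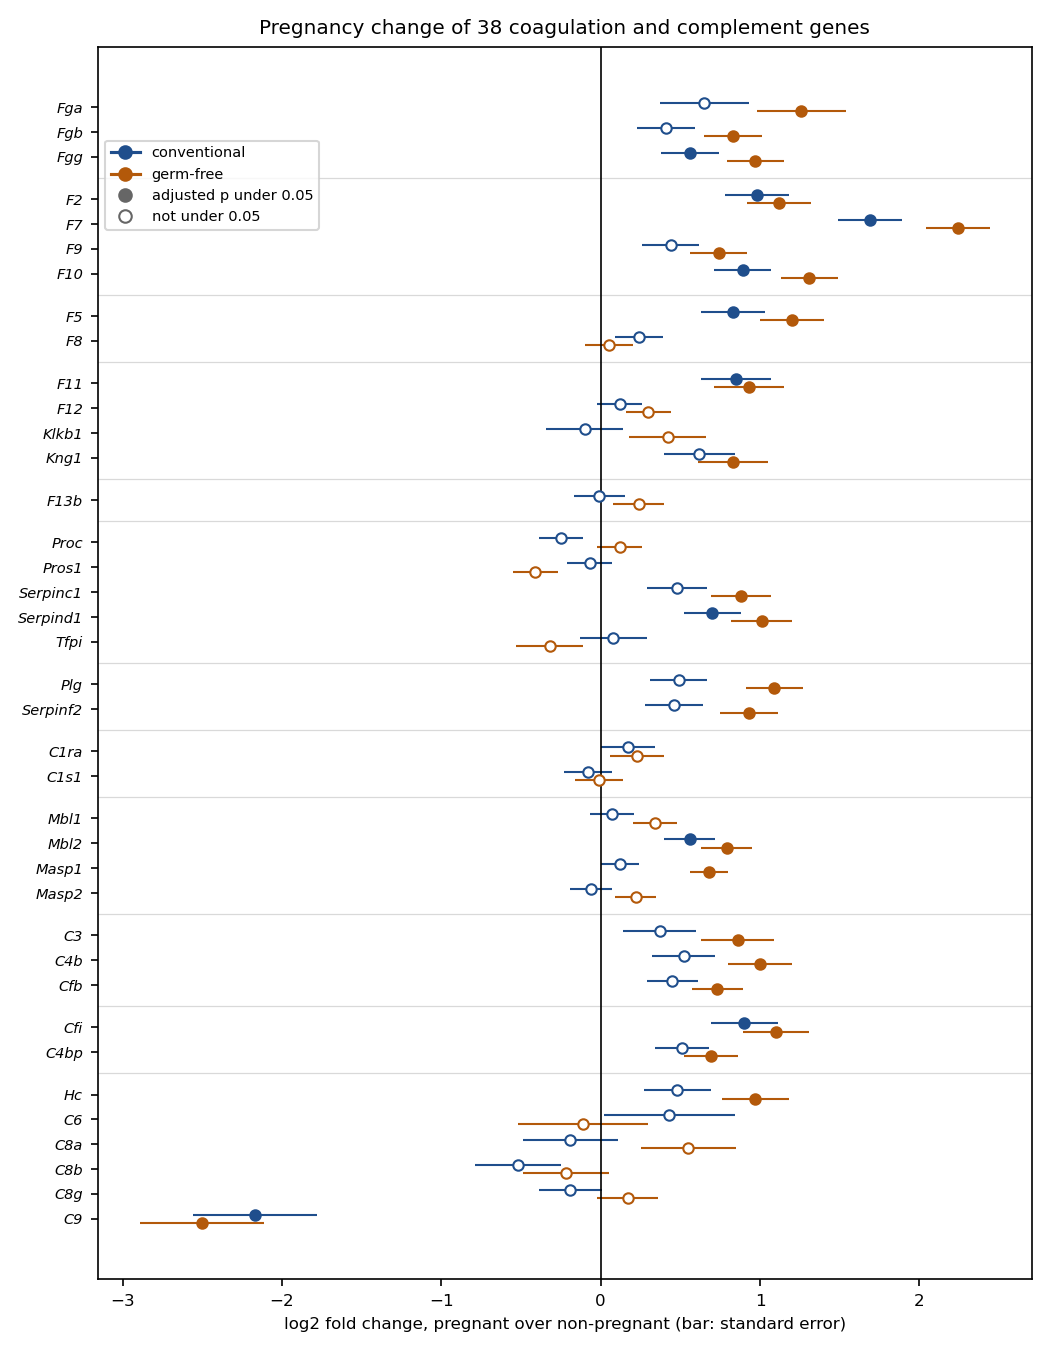
Log2 fold change of pregnant over non-pregnant livers for each gene, with bars of 1 standard error; filled points have an adjusted p under 0.05. F7 lies farthest to the right and C9 farthest to the left in both conventional and germ-free mice.

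Fibrinogen is a dimer of 3 chains encoded by Fga, Fgb and Fgg, and per kilobase of exon these genes came next after C3 in CN, with 1125 CPM for C3, 1000 for Fgg, 717 for Fgb and 671 for Fga, while Hc (complement C5) had 51.1 and F8 0.607. In GP the order was Fgg with 1834, C3 with 1736, Fga with 1334 and Fgb with 1184 CPM per kilobase.

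Fga, the alpha chain gene (ENSMUSG00000028001.16, chr3:83026076-83033627, GRCm38), ran from 1022 to 3787 CPM in CN (median 1749) and from 1215 to 2541 in GN (median 1666). Its 5 CP values were 2659, 4078, 3802, 2518 and 2790 CPM and its 5 GP values 2762, 4821, 3516, 3993 and 4982. All GP livers lay above all GN livers, while CN replicates 1 and 6 lay within the CP range. Fga rose in germ-free mice by 1.26 on the log2 scale (SE 0.28, adjusted p = 0.0041). In conventional mice the change was 0.65 (SE 0.28, adjusted p = 0.16), and 0.93 without CN replicate 6 (adjusted p = 0.020).

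Fgb, the beta chain gene, ran from 1929 to 3626 CPM in CN (median 2655) and from 2250 to 3033 in GN (median 2484). Its CP values were 2679, 4597, 4087, 3426 and 3408 CPM and its GP values 3701, 5594, 4475, 4312 and 4473. The germ-free groups did not overlap and the conventional groups did. The log2 fold change was 0.83 in germ-free mice (SE 0.18, adjusted p = 0.0035) and 0.41 in conventional mice (SE 0.18, adjusted p = 0.17).

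Fgg, the gamma chain gene, ran from 1627 to 2845 CPM in CN (median 1918) and from 1803 to 2225 in GN (median 1936). In CP it stood at 2294, 3941, 3157, 2856 and 3175 CPM and in GP at 2816, 4575, 4094, 3773 and 3934. CP replicate 1 lay below the 2 highest CN livers, and all GP livers lay above all GN livers. Fgg rose by 0.97 in germ-free mice (SE 0.18, adjusted p = 0.00065) and by 0.56 in conventional mice (SE 0.18, adjusted p = 0.048), a call lost in 8 of the 11 fits that left out 1 conventional library. As shares of their summed CPM per kilobase, the chains overlapped between groups: Fgg made up 38.1% to 46.7% in CN and 39.9% to 45.5% in GP, and Fgb 26.7% to 33.2% and 24.9% to 30.0%. Fga, the most variable chain, made up 20.1% to 35.2% in CN and 27.2% to 35.2% in GP.

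The vitamin K-dependent procoagulant factors F2, F7, F9 and F10 all rose in germ-free mice, and all but F9 rose in conventional mice. F7, factor VII, which starts the tissue factor pathway, had the largest rise (ENSMUSG00000031443.7, chr8:13026034-13035809). It ran from 121 to 199 CPM in CN (median 144) and from 112 to 151 in GN (median 123). In CP it stood at 313, 273, 680, 638 and 572 CPM, and in GP at 571, 547, 631, 616 and 637. Every pregnant liver was above every non-pregnant one, with CP replicates 1 and 2 the lowest of the pregnant livers. The mean level was 154 ± 29.8 CPM in CN (SD, n = 6) and 495 ± 189 in CP (SD, n = 5), and 127 ± 15.0 in GN and 600.3 ± 39.4 in GP. The rise was 3.22-fold in conventional mice (log2 1.69, SE 0.20, adjusted p = 4.2e-06) and 4.74-fold in germ-free mice (log2 2.24, SE 0.20, adjusted p = 9.2e-08). Its place among the 38 genes by CPM per kilobase went from 21 in CN to 14 in GP.

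F2, prothrombin, ran from 1300 to 1886 CPM in CN (median 1369) and from 1291 to 1567 in GN (median 1481). In CP it stood at 1768, 1781, 3976, 3164 and 3529 CPM and in GP at 2351, 3559, 3165, 3458 and 3205. CP replicates 1 and 2 lay below CN replicate 6, the highest CN liver, and the other pregnant livers lay above all non-pregnant ones. F2 rose 1.98-fold in conventional (adjusted p = 0.0020) and 2.18-fold in germ-free mice (adjusted p = 0.00039).

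F10, factor X, whose gene begins 1498 bases past the end of F7 on chromosome 8, ran from 393 to 607 CPM in CN (median 471) and from 386 to 519 in GN (median 460). Its CP values were 535, 834, 1007, 833 and 1204 CPM and its GP values 1037, 1275, 1341, 901 and 1093. Only CP replicate 1 lay within the non-pregnant range. F10 rose 1.85-fold in conventional (log2 0.89, adjusted p = 0.0018) and 2.48-fold in germ-free mice (log2 1.31, adjusted p = 2.0e-05). F9, factor IX, had means of 116, 157, 115 and 192 CPM in CN, CP, GN and GP. It rose in germ-free mice (log2 0.74, adjusted p = 0.0081), and its change of 0.44 in conventional mice did not pass (adjusted p = 0.14).

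**Figure D3:**
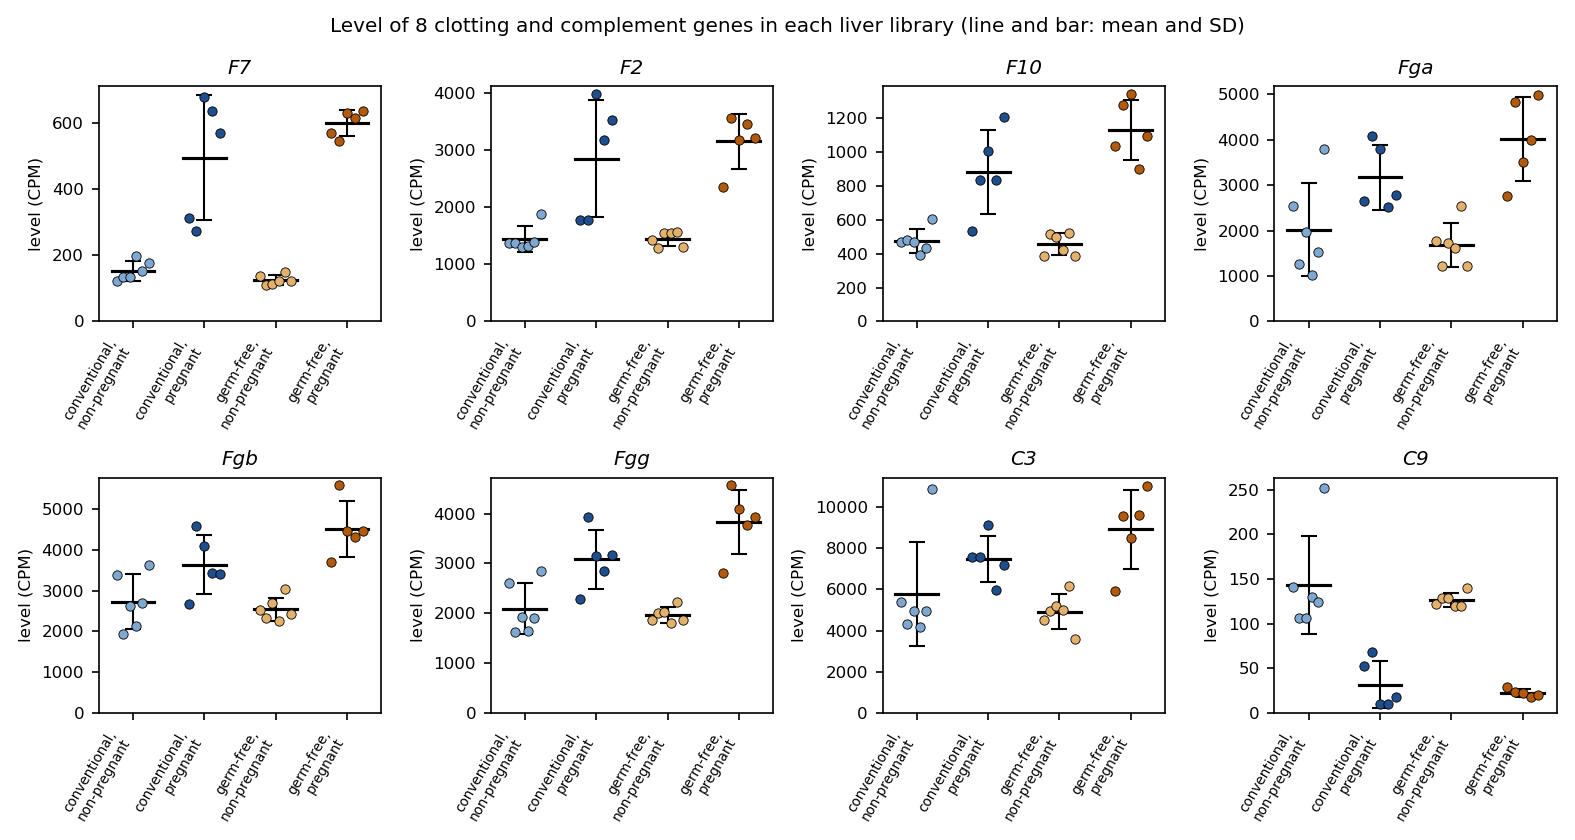
CPM of 8 genes in each library by group, each point 1 mouse, with the group mean (line) and SD (bar). F7 is higher in every pregnant library than in any non-pregnant one and C9 lower, and the 2 lowest F7 values and 2 highest C9 values of the pregnant mice belong to conventional pregnant replicates 1 and 2.

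Of the cofactors, F5 rose in both comparisons and F8 passed in neither. F5, factor V, the cofactor of factor Xa, ran from 199 to 355 CPM in CN (median 224) and from 177 to 295 in GN (median 258). Its CP values were 354, 253, 657, 464 and 447 CPM and its GP values 419, 566, 589, 643 and 687. CP replicates 1 and 2 lay within the CN range, whose highest liver was CN replicate 6. F5 rose 1.77-fold in conventional (log2 0.83, adjusted p = 0.011) and 2.30-fold in germ-free mice (log2 1.20, adjusted p = 0.00027). F8, factor VIII, which in liver is known mainly from endothelial cells, had the lowest level per kilobase of the 38 genes, with means between 5.34 and 7.09 CPM. Its changes were 0.24 in conventional (95% interval -0.08 to 0.55) and 0.05 in germ-free mice (-0.27 to 0.36), and neither passed the test.

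Among the contact system genes, F11, factor XI, rose in both. It ran from 35.5 to 62.6 CPM in CN (median 49.8) and from 30.7 to 68.8 in GN (median 53.4). In CP it stood at 54.6, 57.0, 143, 100.5 and 87.9 CPM and in GP at 81.8, 109, 87.7, 109 and 100.1. CP replicates 1 and 2 lay within the CN range and the other pregnant livers above all non-pregnant ones. F11 rose 1.80-fold in conventional mice (adjusted p = 0.018), a call lost without CP replicate 3 (log2 0.60, adjusted p = 0.080) and with only CN and CP compared (0.83, adjusted p = 0.059), and 1.90-fold in germ-free mice (adjusted p = 0.0080). Klkb1, plasma prekallikrein, ends 4657 bases from F11 on the same strand and passed in neither comparison, at -0.10 and 0.42. Kng1, kininogen, rose in germ-free mice (log2 0.83, adjusted p = 0.013), a call lost without GP replicate 2, and stood at 0.62 in conventional mice (adjusted p = 0.076). Its reads may be split with the paralog Kng2. F12, factor XII, changed by 0.12 and 0.30, and F13b, the carrier subunit of factor XIII, by -0.01 and 0.24, none of which passed.

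Of the 5 anticoagulants, Serpind1, heparin cofactor II, rose in both comparisons. It ran from 299 to 486 CPM in CN (median 312) and from 311 to 382 in GN (median 332). The CP livers had 364, 427, 745, 562 and 680 CPM and the GP livers 482, 632, 909, 706 and 675. CN replicate 6 lay above CP replicates 1 and 2, and GP lay wholly above GN. The rises were 1.63-fold (adjusted p = 0.018) and 2.02-fold (adjusted p = 0.00063). The call in conventional mice was lost without CP replicate 3 (adjusted p = 0.062), without CP replicate 5 and with only CN and CP compared (adjusted p = 0.078). Serpinc1, antithrombin, rose in germ-free mice from a mean of 2111 to 3879 CPM (log2 0.88, adjusted p = 0.0035) and had a change of 0.48 in conventional mice (adjusted p = 0.13). Proc, protein C, had changes of -0.25 in conventional (95% interval -0.55 to 0.05) and 0.12 in germ-free mice (-0.17 to 0.42). Pros1, the protein S gene, had a change of -0.07 in conventional mice. In germ-free mice it went from a mean of 41.8 to 31.6 CPM, with every GP liver below every GN liver, and did not pass (log2 -0.41, adjusted p = 0.066), although DESeq2 called it. Tfpi, tissue factor pathway inhibitor, had group means of 4.11 to 5.70 CPM, with single libraries from 2.74 to 8.06. It passed in neither comparison, at 0.08 and -0.32.

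Both fibrinolysis genes rose in germ-free mice. Plg, plasminogen, went from a mean of 1487 to 3163 CPM (log2 1.09, adjusted p = 0.00026), and Serpinf2, the plasmin inhibitor alpha-2-antiplasmin, from 676 to 1285 CPM (log2 0.93, adjusted p = 0.00092). In conventional mice their changes of 0.49 and 0.46 did not pass (adjusted p = 0.10 and 0.11).

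Of the 6 initiating genes of complement, 4 passed in neither comparison. C1ra and C1s1, the proteases of the classical pathway complex, were among these: C1ra changed by 0.17 and 0.23, and C1s1 by -0.08 (95% interval -0.40 to 0.24) and -0.01 (-0.33 to 0.32). Reads of each may be split with the copies C1rb and C1s2. In the lectin pathway Mbl2, mannose-binding lectin C, rose in both comparisons. It ran from 493 to 644 CPM in CN (median 552) and from 380 to 640 in GN (median 479), and stood at 557, 795, 926, 956 and 863 CPM in CP and 780, 973, 969, 679 and 789 in GP. CP replicate 1 lay within the CN range and all GP livers lay above all GN livers. The rises were 1.47-fold (adjusted p = 0.029), lost in 6 of the 11 fits that left out 1 conventional library, and 1.72-fold (adjusted p = 0.0018). Mbl1, mannose-binding lectin A, had changes of 0.07 and 0.34, and Masp2, a lectin pathway protease, of -0.06 and 0.22, with none passing. Masp1, another lectin pathway protease, rose in germ-free mice from 101 ± 10.2 to 161 ± 15.2 CPM (log2 0.68, adjusted p = 0.00048) and had a change of 0.12 in conventional mice (adjusted p = 0.62).

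The central components C3, C4b and Cfb, the last being factor B of the alternative pathway, rose in germ-free mice, with log2 fold changes of 0.86, 1.00 and 0.73 (adjusted p = 0.015, 0.0016 and 0.0033). The C3 call was lost without GP replicate 5. Reads of C4b may be split with the copy C4a. In conventional mice their changes of 0.37, 0.52 and 0.45 did not pass (adjusted p = 0.37, 0.12 and 0.079). CN replicate 6 changed these calls: its 10896 CPM of C3 stood against 4198 to 5376 in the other CN livers, and without it all 3 genes were called higher, at 0.65, 0.72 and 0.57.

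The complement regulators rose in germ-free mice, and Cfi, factor I, which cleaves C3b and C4b, rose in conventional mice too. Cfi ran from 384 to 750 CPM in CN (median 440) and from 361 to 569 in GN (median 489). The CP livers had 614, 561, 1313, 977 and 1023 CPM and the GP livers 786, 1176, 1043, 1200 and 974. CN replicate 6 lay above CP replicates 1 and 2, and GP lay wholly above GN. The rises were 1.87-fold (log2 0.90, adjusted p = 0.0079) and 2.14-fold (log2 1.10, adjusted p = 0.0011). C4bp, the C4b-binding protein, rose in germ-free mice (log2 0.69, adjusted p = 0.010) and had a change of 0.51 in conventional mice (adjusted p = 0.067). It was called there by DESeq2, without CN replicate 6 (log2 0.63, adjusted p = 0.015) and without CP replicate 1 (log2 0.64, adjusted p = 0.012).

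The terminal pathway held the 1 gene that fell. C9, whose product polymerises to form the membrane pore (ENSMUSG00000022149.17, chr15:6445327-6498751), ran from 106 to 251 CPM in CN (median 127) and from 119 to 140 in GN (median 126). In CP it stood at 52.4, 67.9, 10.3, 10.2 and 18.0 CPM and in GP at 28.8, 23.0, 22.5, 17.6 and 20.0. Every pregnant liver was below every non-pregnant one, and CP replicates 1 and 2 were the highest of the pregnant livers. The mean went from 143 ± 54.7 (SD, n = 6) to 31.8 ± 26.7 CPM (SD, n = 5) in conventional mice and from 126 ± 7.76 to 22.4 ± 4.20 in germ-free mice. C9 was thus 4.50-fold lower in conventional (log2 -2.17, SE 0.39, adjusted p = 0.00068) and 5.65-fold lower in germ-free pregnancy (log2 -2.50, SE 0.39, adjusted p = 0.00012). Its place by CPM per kilobase went from 25 of the 38 genes in CN to 34 in GP.

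No other terminal gene was called lower over all libraries. Hc, complement C5, rose in germ-free mice from a mean of 271 to 532 CPM (log2 0.97, adjusted p = 0.0026), with 0.48 in conventional mice (adjusted p = 0.17). C6, which joins C5b in the pore, averaged 10.0 to 13.4 CPM in the 4 groups and passed in neither comparison, with 95% intervals of -0.43 to 1.28 and -0.97 to 0.75. C8a, C8b and C8g, which encode the chains of C8, passed in neither comparison, at -0.19, -0.52 and -0.19 in conventional and 0.55, -0.22 and 0.17 in germ-free mice. C8b, next to C8a on chromosome 4, was called lower in conventional mice without CP replicate 2 (log2 -0.94, adjusted p = 0.011), the CP liver with the most C8b, 189 CPM against 58.5 to 78.1.

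Fits within each age label gave different counts in conventional mice, a split chosen after the values were seen. With age label 77 alone (4 CN and 3 CP livers), 18 of the 38 genes were called higher against a background of 4.93%, and all 18 were among the 22 that rose in germ-free mice. With age label 70 alone (2 CN and 2 CP livers), F7 was the 1 gene called higher, against a background of 0.954%, and the median log2 fold change over the 38 genes was -0.06, compared with 0.70 at label 77. F7 changed by 0.97 at label 70 and 2.02 at label 77, and C9 changed by -1.70 and -3.18 and was called lower at both. F2 changed by 0.13 and 1.40, Cfi by -0.04 and 1.40, F11 by -0.08 and 1.31, and F5 by 0.00 and 1.27. The difference of these changes was tested in the same fit by edgeR's quasi-likelihood test. It was called for none of the 38 genes, against a background of 0.0126% of all genes called. DESeq2 was not run on this difference. By the same edgeR test 20 of the 38 had an unadjusted p under 0.05, and the share of all genes at that threshold is not given here. The smallest adjusted p was 0.15, for F2 and Cfi, whose differences were 1.28 and 1.45. In germ-free mice, age label 105 alone (4 GN and 3 GP livers) gave 23 genes called higher, against a background of 7.13%, Klkb1 being the added gene (log2 0.86, adjusted p = 0.044). Label 70 also holds CN replicate 6 and CP replicate 2, the libraries that stood apart, and age label, these mice and any other feature of them cannot be told apart.

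**Figure D4:**
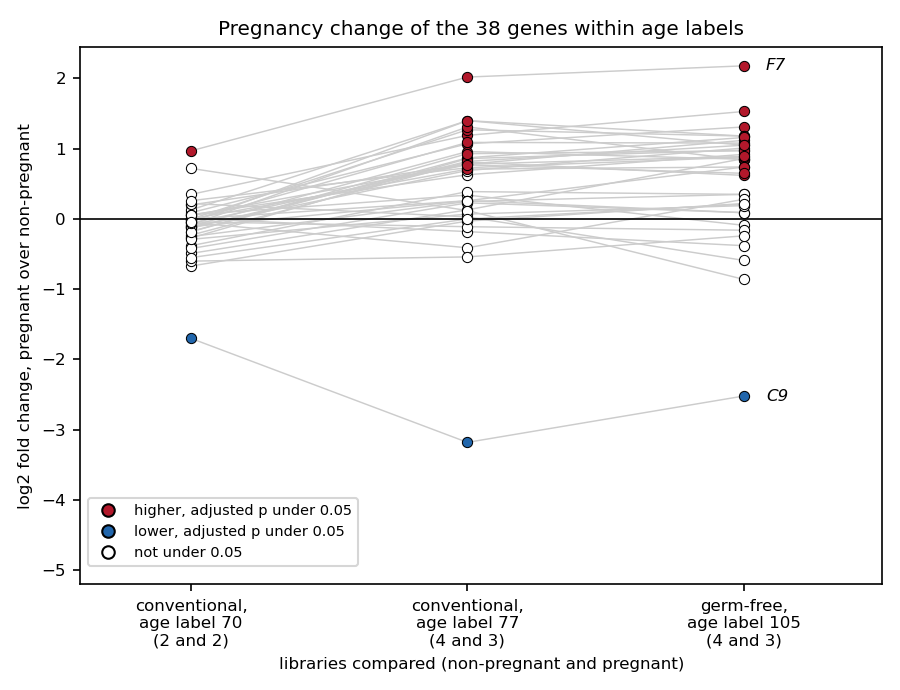
Log2 fold change of pregnant over non-pregnant livers for the 38 genes within 1 age label at a time, each line 1 gene and colour marking the call. Most genes lie near 0 at label 70 and between 0.6 and 1.5 at labels 77 and 105, while F7 is highest and C9 lowest at all 3.

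No gene of the 38 was called between germ-free and conventional mice. Between GN and CN, 0 were called by edgeR's quasi-likelihood test (background 0.157% in either direction), 1 had an unadjusted p under 0.05 and DESeq2 called 0. The log2 fold changes ran from -0.35 to 0.19 with a median of -0.10. Between GP and CP, 0 were called (background 0.132%), 6 had an unadjusted p under 0.05 and DESeq2 called 0. Values here ran from -0.51 to 0.48 with a median of 0.23. Proc had the smallest unadjusted p of them (log2 0.41, 95% interval 0.10 to 0.72, adjusted p = 0.34). The difference between the germ-free and conventional pregnancy changes was called for 0 genes (background 0%), with 2 at unadjusted p under 0.05 and 0 by DESeq2. These 2 were Masp1 (difference 0.55, SE 0.17, adjusted p = 0.86) and Plg (0.60, SE 0.26, adjusted p = 0.86). The difference was above 0 for 33 of the 38 genes, with a median of 0.30 against -0.02 over all genes tested. The share of all genes with a difference above 0 is not given here. Within age labels, the median pregnancy change of the 38 genes was -0.06 at label 70 and 0.70 at label 77 in conventional mice. It was 0.79 at label 105 in germ-free mice. The larger count of calls in germ-free mice is therefore not shown to be a larger response of any 1 gene.

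Other genes of the pathways were counted from lists, against the same backgrounds of 5.49% higher and 3.52% lower in conventional and 7.15% and 3.6% in germ-free mice. Of 25 tested genes of coagulation and fibrinolysis outside the 38, 4 rose in conventional mice and 8 in germ-free mice, and none fell. Fgl1, a fibrinogen-like hepatokine, rose by 1.33 and 2.00, and Serpina10, the protein Z-dependent protease inhibitor, by 1.19 and 1.43. Of 9 genes of the vitamin K cycle and of factor export, Mcfd2 rose in conventional mice (0.66), and 3 rose in germ-free mice, among them Furin (1.06) and Mcfd2 (0.80). Without CN replicate 6 the count in conventional mice was also 3 (Mcfd2, Lman1 and Furin). The MCFD2 protein helps carry factors V and VIII out of the endoplasmic reticulum, and furin trims propeptides.

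Of 32 tested complement genes outside the 38, 3 rose in conventional mice and 3 in germ-free mice. Vtn, vitronectin, which binds the terminal complex, rose by 0.87 and 1.47. Cpn1, a carboxypeptidase N subunit, rose by 0.83 in germ-free mice. Itgam, a myeloid complement receptor subunit, was called higher in conventional mice (1.35), but not without CP replicate 2.

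Of 13 hepatocyte transcription factor genes, Onecut1 (1.36) and Foxa3 (0.75) were called higher and Foxa1 (-1.08) and Nr2f2 (-0.62) lower in conventional mice, Foxa3 not without CP replicate 2. In germ-free mice Foxa3 rose (1.11) and Foxa1 fell by 1.00. Of 9 genes of the interleukin 6 and STAT3 axis, Stat3, the transcription factor that carries this signal, rose in both comparisons (0.73 and 0.81), and Il1rap fell by 0.83 in conventional mice. Il6ra was also called higher there without CP replicate 2. Of 17 acute phase genes, 10 were called higher and 1 lower in conventional mice, led by Saa3 (5.48) and Saa2 (4.90), with Orm3 lower (-1.87). Without CP replicate 2 the count was 3 higher and 1 lower. In germ-free mice 5 rose, led by Itih4 (2.93) and Serpina3n (1.23).

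Markers of cell types moved with pregnancy in part. Of 6 hepatocyte markers, Alb (1.25 and 1.13) and Tat (0.81 and 0.68) rose in both comparisons and Ttr fell in both (by 1.46 and 1.69). Their summed level was 58035 to 85330 CPM in CN, 65263 to 233682 in CP, 50856 to 86427 in GN and 121339 to 185353 in GP. Of 7 erythroid genes, 2 rose in conventional and all 7 in germ-free mice, and their summed level was 448 to 862 CPM in CN, 369 to 2251 in CP, 237 to 1768 in GN and 1759 to 3573 in GP. Of 8 Kupffer cell, 4 tested platelet, 2 tested neutrophil and 5 tested B and T cell markers, 0 were called by edgeR's quasi-likelihood test or by DESeq2 in either pregnancy comparison. At unadjusted p under 0.05 there were 2, 0, 2 and 0 in conventional and 1, 0, 0 and 1 in germ-free mice. Of 10 endothelial markers, Stab2 alone rose, in germ-free mice (0.39). Of 8 stellate cell markers 1 rose and 2 fell in conventional mice, 1 of them (Ecm1) not without CP replicate 2, and 1 fell in germ-free mice. Of 5 tested bile duct markers 1 fell in conventional and 1 rose and 1 fell in germ-free mice, where DESeq2 called 1. Their summed level in GP had a median of 25.6 CPM and a highest value of 137 CPM. The germ-free calls without that highest liver are not given here. The platelet markers summed to at most 26.8 CPM and the neutrophil markers to at most 19.5 CPM in any library, and no marker was at 0 throughout. The part of these cells in the changes of the 38 genes was not tested.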

How the data were processed

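Whole-liver RNA of 22 mice in 4 groups was sequenced from libraries made with the NEBNext Ultra kit, per the labels' protocols. The authors deposited 1 table of estimated counts per gene, and the submitters' processing notes name Salmon 0.11.3, edgeR 3.24.3 and GRCm38.p6 without their roles. Use of strand and the annotation release are not given in the sources used here. Between 14.7% and 26.3% of values per library were not whole, and rounding changed counts by 0.0083%. The identifiers were paired with GENCODE mouse names (97.7% with version, 99.93% in all). Counts were tested with edgeR 4.0.16 in R 4.3.3 (filterByExpr with a minimum count of 10 and a minimum total of 15, TMM, quasi-likelihood F test, 1 term per group, all 22 libraries), with Benjamini-Hochberg adjustment over 15928 genes. The standard error is the log2 fold change over the root of F, and 95% intervals used 18 residual degrees of freedom. Totals of 18064491 to 30036912 and the number of mice limit precision. The script was tested on simulated data. The lowest mean chi-square per gene between 2 libraries of a group was 34.6, so none was a repeat. Alternatives were DESeq2 1.42.0, RLE size factors, no filter, no mitochondrial genes, only the groups compared, a replicate block, each library left out and, added after seeing the data, age labels. All 38 genes are named by role, with each library's value for those called in both pregnancy comparisons and for fibrinogen, and at most 2 called genes per direction from other lists. The genes and lists were chosen with earlier results of these data known. Amino acid sequences were not used here. Some results of single genes in the other lists are not reported here.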

Additional observations from a re-analysis of the deposited data

Results flagged for a closer look

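In each group, the highest and lowest CPM of each of the 38 genes were compared with the nearest other library, and a gap that took up an unusually large part of the group's range (Dixon's criterion) was found in 21 of 152 combinations of gene and group. Chance gives such a gap in about 1 of 20 groups, and the genes of 1 library are not independent. CN replicate 6 was the highest CN library in 12 of them: F2 at 1886 CPM (next 1397), F9 at 164, F5 at 355, Serpind1 at 486, C1ra at 296, C3 at 10896 (next 5376), C4b at 1454, Cfb at 1391, Cfi at 750, C4bp at 379, C8a at 278 and C9 at 251.

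CP replicate 2 was the highest CP library for Pros1 at 49.1 CPM, C8a at 336 (next 134) and C8b at 189 (next 78.1), and the lowest for Masp1 at 115. CP replicate 5 was the highest for Klkb1 at 620.3 CPM (next 357). GN replicate 2 was the lowest GN library for F5 at 177 CPM and C1s1 at 142, and GN replicate 1 for Serpinc1 at 1549 CPM (next 2158). GP replicate 1 was the lowest GP library for Plg at 2315 CPM (next 3202).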

How the results depend on the processing

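The 9 genes called higher in conventional pregnancy became 3 with only the 2 groups compared (F2, F7 and F10), 5 to 18 with 1 library left out, 18 with age label 77 alone and 1 with age label 70 alone, and C9 was called lower throughout, joined by C8b without CP replicate 2 (1 to 2 called lower with 1 library left out). At age label 70, F11 at -0.08, Serpind1 at -0.02 and Cfi at -0.04 were on the other side of 0 from their called values. The age label fits were chosen after seeing the data, and the cause of these differences was not tested. Apart from the age label fits, the share of all genes called under each alternative is not given here. In germ-free pregnancy 20 to 23 genes were called higher, and 2 were called lower with DESeq2, without mitochondrially encoded genes and with only the 2 groups compared, the added gene being Pros1. Over 722 values of the 38 genes in conventional mice, 34 lost a call in the same direction, the 3 named above lost it with a change of sign, 29 gained one, and 28 uncalled values changed sign. In germ-free mice, 4 of 684 lost and 4 gained a call. No gene was called between germ-free and conventional mice or in the difference of pregnancy changes under any alternative run. The samples share replicate numbers in their titles, but deviations of same-numbered libraries had correlations of -0.255 to 0.307 over 21 pairs, so the numbers were taken not to pair the mice. With the replicate block 7 genes were higher and 1 lower in conventional pregnancy and 22 higher and 1 lower in germ-free pregnancy. The difference of pregnancy changes uses all 4 groups, so it had no fit with fewer. Few mice per group limit what could be called.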
